A study of Danio rerio with 2 samples.

Results

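Zebrafish germ cells were examined for the genes that encode tubulins and the proteins that fold, sequester and modify them. Members were all genes whose symbol starts with tubgcp or agbl, or with tuba, tubb, tubg, tubd, tube, ttll or stmn followed by a digit, or is one of tbca, tbcb, tbcc, tbcd and tbce. The rule found 54 of 32520 genes. These are 11 alpha tubulins, 7 beta tubulins, 8 genes of the gamma tubulin complex and of delta and epsilon tubulin, 11 tubulin tyrosine ligase-like (ttll) genes, 5 agbl genes, 5 tubulin cofactors and 7 stathmins. Symbols are spelt as the reference table of gene names gives them, in lower or upper case, and genes with the same symbol are told apart by their Ensembl identifier.

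The data are single-cell RNA-seq profiles of dissociated testes from adult zebrafish aged 6 months, in 2 libraries labelled replicate 1 and replicate 2, which the study calls biological replicates. All fish belong to 1 untreated group. The methods give as many adult males as there are libraries, while no label says which fish went into which, and p-values measure the spread between these libraries. A label calls them wild type and another calls them transgenic, with no transgene named. Germ cells were assigned to undifferentiated and differentiated type A spermatogonia (SPG-Aun and SPG-Ad), type B spermatogonia (SPG-B), primary and secondary spermatocytes (SPC-I and SPC-II), and round and elongated spermatids (SPT-r and SPT-e). Stage labels were the study's own for 1999 cells of replicate 1, and were transferred from these to 3943 cells of replicate 2 by the vote of 15 nearest labelled cells, in a space from which the members were left out.

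Unique molecular identifiers (UMIs), each standing for 1 captured transcript, were summed per stage and replicate. This gave 14 sums of 693732 to 12213385 UMIs, and each stage therefore had n = 2. In the chemistry used, a transcript is read at its 3′ end and counted once whatever its length, so that levels of different genes are set side by side here without scaling to length. Levels are given as CPM, UMI counts scaled to a common total, after TMM size factors that set the bulk of genes equal between sums. A member was called higher or lower where the adjusted p of edgeR lay below 0.05 and the log2 fold change was over 1 in size. When labels of replicate 1 were hidden, 90.6% were recovered, from 97.4% in SPT-e down to 67.4% in SPG-B, where 41 of 178 cells went to SPG-Aun. That check stayed within replicate 1, so it does not measure how accurate the transfer into replicate 2 was. The spermatogonial marker ddx4 was highest in SPG-Aun and SPG-Ad (2218 to 2458 CPM), sycp3 in SPC-I (4097 and 4154 CPM) and edrf1 in SPT-e (1117 and 1150 CPM). The SPG-Aun markers eno3, e2f5 and ripply2 together reached 305 to 330 CPM in SPG-Aun but 1044 to 1152 CPM in SPG-B and 883 to 1128 CPM in SPC-I. The gene pcna, used by the study for spermatocytes, was highest in SPG-Ad. Genes of other testis cells were low, with summed Sertoli cell markers between 0 and 19.8 CPM and summed Leydig cell markers between 23.4 and 361 CPM, highest in SPT-e of replicate 2. SPT-e cells were shallow, with medians of 1374 and 1358 UMIs per cell in replicates 1 and 2, against 7998 and 8868 in SPT-r.

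Microtubules are hollow polymers of alpha and beta tubulin dimers. Each is made from several near-identical paralogs that differ mainly in their C-terminal tails. Gamma tubulin and its partner proteins seed new microtubules, and delta and epsilon tubulin serve the triplet microtubules of centrioles. In the testis, microtubules form the mitotic and meiotic spindles, and in spermatids the axoneme of the flagellum. TTLL enzymes add glutamate or glycine chains to tubulin tails, a modification that is abundant on axonemes, and AGBL enzymes, also called cytosolic carboxypeptidases, shorten glutamate chains.

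Of the 54 members, 43 passed the filter on low counts and were tested with edgeR on all 13885 genes that passed. The other 11 were nearly silent in all stages. Among them, tuba8l5 had no UMI, tubb1 had 1, TUBB2B (ENSDARG00000039522) had 2, STMN3 had 4, tuba8l3 had 9 and tubb6, the most abundant, had 118 over the 14 sums. The remaining untested members, tubb4bl, AGBL4 (ENSDARG00000110838), STMN4 (ENSDARG00000043932) and both genes named STMN2, had 13 to 79 UMIs. Levels differed over the 7 stages for 38 of the 43 tested members by edgeR's F test, which is close to the 88.9% of all genes tested. The exceptions were tuba2, tuba5, tbce, TBCA and STMN1 (ENSDARG00000033655), with adjusted p from 7.16e-02 to 6.95e-01 by edgeR. With the replicate number as a block 41 members passed, among them tuba5 (adjusted p = 8.63e-05), STMN1 (ENSDARG00000033655) (1.40e-02) and TBCA (1.62e-02), but not tuba2 (6.91e-01) and tbce (8.41e-02). The share of all genes that passed with the block is not given here. Since stage labels were made from the same cells' expression, in which the study lists stmn1a, tuba8l4 and tubb2b among SPG-Ad genes, these tests are not independent of the labels.

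The stage of the highest level was the same in both replicates for 33 of the 43 members, while this held for 63.9% of all genes. Of these 33, 7 peaked in SPG-Ad, 13 in SPT-r and 10 in SPT-e on the CPM scale. The SPT-e peaks depend on that scale. With sums scaled by their number of cells, 0 members were called higher and 41 lower from SPT-r to SPT-e, beside 220 and 11249 of all genes. SPG-Aun, SPG-B and SPC-I were the peak of 1 member each, ttll4, tuba1b and agbl1, and SPC-II of 0. Among all genes with a shared peak, 14.9% peaked in SPG-Ad, 18.5% in SPT-r and 22.3% in SPT-e. Of the same genes, SPC-II was the peak for 8.16%, SPC-I for 10.6%, SPG-B for 10.3% and SPG-Aun for 15.2%. Within a stage, replicate 2 exceeded replicate 1 by a median of 0.01 to 0.26 on the log2 scale over the members, and in SPT-e 8 members differed between replicates by more than 1 on that scale, beside 32.9% of all genes.

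**Figure D1:**
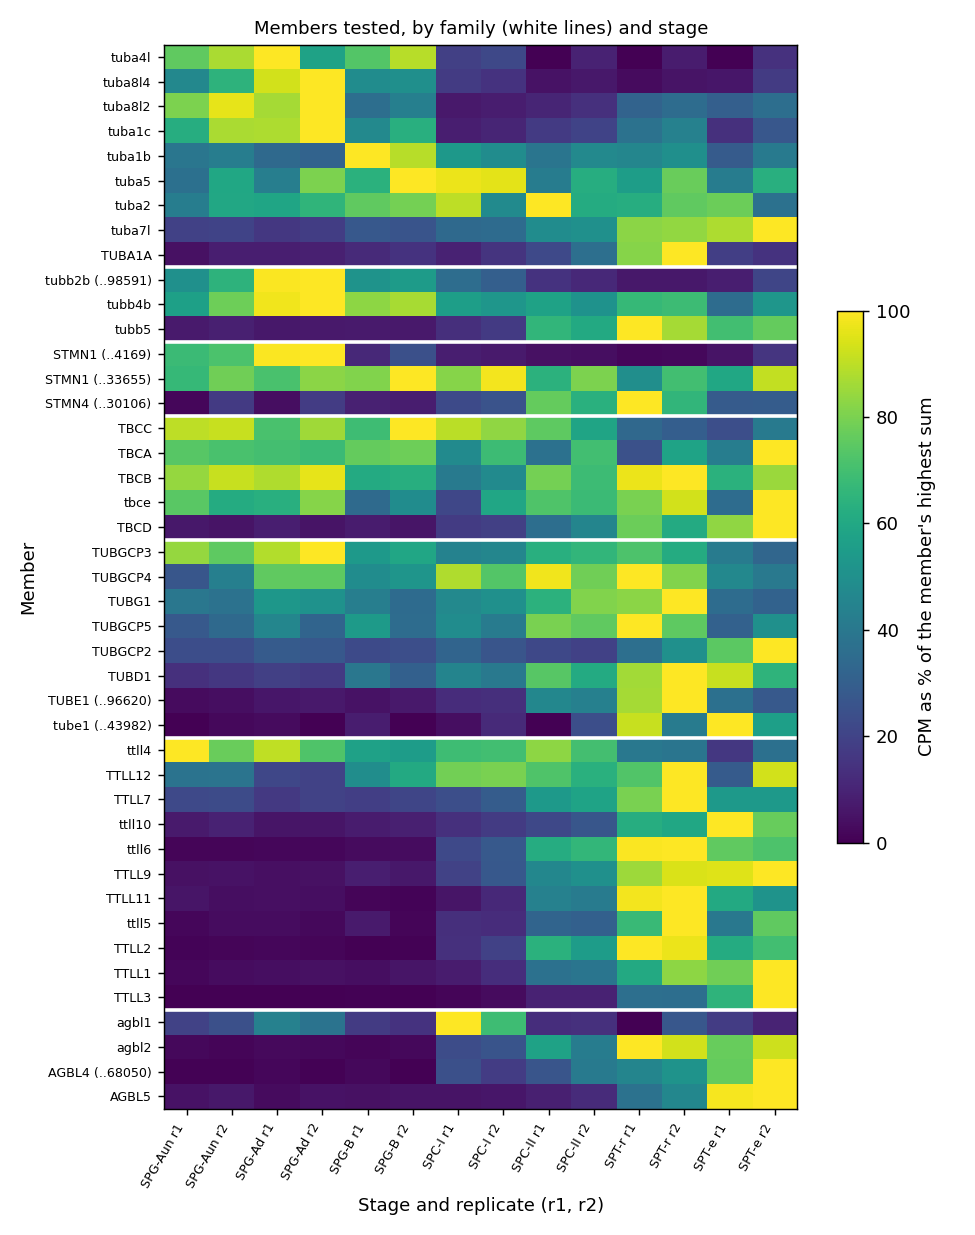
Levels of the 43 tested members (rows, grouped by family) in the 14 sums (columns, by stage and replicate r1 or r2), as CPM in percent of the member's highest sum. Digits after dots in a name are the end of its Ensembl identifier. Most TTLL and AGBL genes are dark up to SPG-B and bright in spermatids, while tubb2b, tuba8l4 and STMN1 (ENSDARG00000004169) are bright in SPG-Ad.

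Alpha tubulin transcripts came mainly from a pair of paralogs, which changed place along the lineage. In differentiated type A spermatogonia, tuba8l4 was the most abundant alpha tubulin, and from SPG-B on tuba7l led in both replicates. tuba7l made up 29.99% ± 0.471 of alpha tubulin UMIs in SPG-Ad and 91.1% ± 1.29 in SPT-r (SD, n = 2), whereas tuba8l4 made up 56.0% ± 1.099 in SPG-Ad and 1.495% ± 0.565 in SPT-r. The exact (Clopper-Pearson) 95% intervals of these shares, which cover counting error only, ran in SPG-Ad from 54.6% to 57.5% for tuba8l4 and from 29.0% to 30.9% for tuba7l over both replicates. In SPG-Aun tuba7l held 46.75% in replicate 1 and 40.3% in replicate 2, and tuba8l4 held 38.0% and 43.3%, so that their order differed between the replicates. Shares are of the UMIs on members only, and tubulin genes under other symbols are not counted in them.

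The share of tuba7l was higher at each stage than at the stage before it from SPG-Ad to SPT-r, in both replicates. SPG-B gave 53.2% and 50.2%, SPC-I 76.3% and 78.5%, SPC-II 89.9% and 87.8%, and SPT-r 92.0% and 90.1%, in replicates 1 and 2. Its level in SPG-Aun was 1439 CPM in replicate 1 and 1500 CPM in replicate 2, and 1216 and 1372 CPM in SPG-Ad. It then stood at 2068 and 1948 CPM in SPG-B, 2559 and 2620 CPM in SPC-I, 3648 and 3744 CPM in SPC-II, 6188 and 6276 CPM in SPT-r and 6556 and 7484 CPM in SPT-e. The 4 spermatid sums did not overlap with the 4 sums of type A spermatogonia, and edgeR gave a log2 fold change of 2.26 (SE 0.12, adjusted p = 1.30e-10), a 4.80-fold rise. No single step between neighbouring stages passed a log2 fold change of 1 for this gene.

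tuba8l4 was highest in SPG-Ad, and each later stage up to SPT-r was lower than the stage before it in both replicates. The gene gave 1169 and 1612 CPM in SPG-Aun, 2329 and 2501 CPM in SPG-Ad, 1212 and 1245 CPM in SPG-B, 432 and 362 CPM in SPC-I, 126 and 161 CPM in SPC-II and 73.7 and 132 CPM in SPT-r. It fell by 1.63 on the log2 scale from SPG-B to SPC-I (SE 0.35, adjusted p = 2.07e-03) and by 1.46 from SPC-I to SPC-II (SE 0.35, adjusted p = 5.32e-03), both by edgeR. In SPT-e it was 154 CPM in replicate 1 and 436 CPM in replicate 2.

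**Figure D2:**
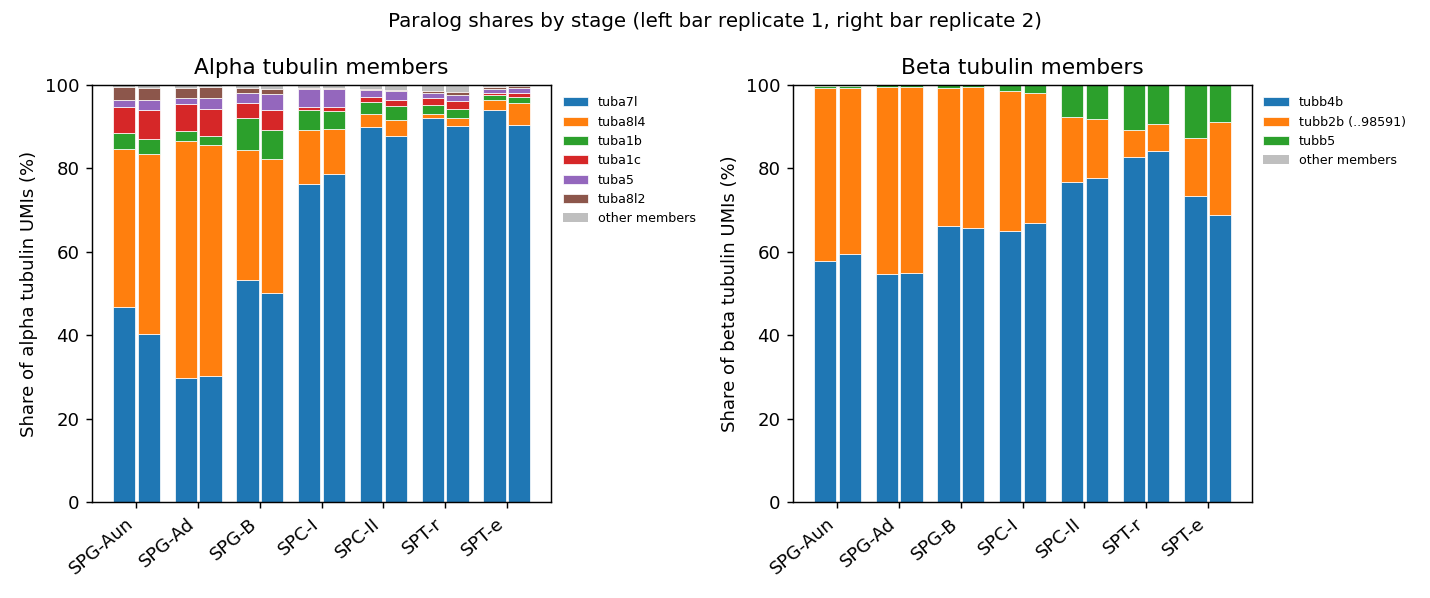
Share of each alpha tubulin (left panel) and beta tubulin (right panel) in the UMIs of its family, in percent, by stage, with the left bar of a pair for replicate 1 and the right bar for replicate 2. tuba8l4 is the larger part of the alpha bar in SPG-Ad (56.0%), tuba7l fills most of it from SPC-I on, and tubb5 becomes visible beside tubb4b and tubb2b from SPC-II.

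3 further alpha tubulins, tuba1a, tuba1b and tuba1c, lie next to each other in the RefSeq gene table (assembly GRCz12tu, used for order only), and each had its own stage. tuba1c was an early gene with 262 and 299 CPM in SPG-Ad, a low of 24.6 and 30.4 CPM in SPC-I and 113 and 131 CPM in SPT-r. It fell from SPG-B to SPC-I by 2.57 on the log2 scale (SE 0.26, adjusted p = 3.22e-06, edgeR) and rose again in the next steps, by 1.02 to SPC-II and 1.12 to SPT-r. tuba1b stood out in type B spermatogonia, with 298 and 266 CPM against 102 and 94.5 CPM in SPG-Ad, and its rise of 1.52 (SE 0.18, adjusted p = 4.75e-05, edgeR) was the larger of 2 called rises in that step, beside TTLL12 at 1.42. On a scale per cell, with the number of cells in place of the total of UMIs, this rise was 0.72, under the limit of 1. TUBA1A was a round spermatid gene, at 85.8 and 105 CPM in SPT-r but 19.5 and 15.4 CPM in SPT-e and 4.54 to 9.18 CPM in type A spermatogonia. It fell by 2.49 on the log2 scale from SPT-r to SPT-e (SE 0.37, adjusted p = 2.09e-04, edgeR), the largest fall of that step among the members. Reads shared by near-identical paralogs can be dropped or moved between them in counting, so levels of single alpha and beta tubulins are uncertain to that extent.

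Among the other alpha tubulins, tuba8l2 gave 93.2 to 116 CPM in type A spermatogonia, 7.92 and 9.32 CPM in SPC-I and 35.1 to 41.8 CPM in spermatids. It was called lower in SPG-B than in SPG-Ad, lower again in SPC-I, and higher in SPT-r than in SPC-II (log2 fold change 1.44, SE 0.23, adjusted p = 2.69e-04, edgeR). tuba4l was rare, with at most 7.79 CPM, and was lower in spermatids, where 3 UMIs were counted against 168 in type A spermatogonia, a ratio of 17.35 with a counting interval of 5.84 to 85.0. tuba2 and tuba5 stayed within 6.60 to 17.6 CPM and 54.5 to 148 CPM, with no called step.

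Among the beta tubulin members, most transcripts came from tubb4b at every stage. tubb2b (ENSDARG00000098591) was second in all stages but SPT-r, where tubb5 exceeded it. Here too, genes under other symbols are not counted. tubb4b held 54.8% ± 0.248 of beta tubulin UMIs in SPG-Ad and 83.4% ± 1.102 in SPT-r (SD, n = 2). tubb2b held 44.7% ± 0.263 and 6.58% ± 0.0391 in the same stages, and tubb5 0.326% ± 0.00640 and 9.97% ± 1.08. In SPT-e tubb2b was at 13.9% and 22.4% in replicates 1 and 2, and tubb5 at 12.6% and 8.74%. The 95% exact intervals of the SPT-r shares ran over both replicates from 81.3% to 85.1% for tubb4b, 5.78% to 7.51% for tubb2b and 8.5% to 11.8% for tubb5.

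By level, tubb4b varied less than its paralogs. It gave 2172 and 2217 CPM in SPG-Ad, 1239 and 1169 CPM in SPC-I, 1487 and 1524 CPM in SPT-r and 781 and 1161 CPM in SPT-e, and no step between neighbouring stages was called. Its difference between spermatids and type A spermatogonia was −0.58 on the log2 scale (SE 0.14, adjusted p = 1.80e-03, edgeR), under the limit of 1 in size. The fall of tubb2b was far larger. tubb2b gave 1785 and 1795 CPM in SPG-Ad, 923 and 987 CPM in SPG-B, 639 and 547 CPM in SPC-I, 263 and 208 CPM in SPC-II and 119 CPM in both replicates of SPT-r. It fell by 2.93 on the log2 scale in spermatids (SE 0.22, adjusted p = 6.83e-09, edgeR), and its 4 spermatid sums lay below all 4 sums of type A spermatogonia. The fold change was −3.52 without the SPT-e sum of replicate 2 and −2.8 without that of replicate 1.

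tubb5 lay between 12.8 and 16.6 CPM in the 6 spermatogonial sums and rose in the 2 meiotic steps. Its levels were 26.4 and 33.0 CPM in SPC-I, 127 and 117 CPM in SPC-II, 193 and 167 CPM in SPT-r and 134 and 147 CPM in SPT-e. The rise was 1.16 from SPG-B to SPC-I (SE 0.22, adjusted p = 9.70e-04) and 2.03 from SPC-I to SPC-II (SE 0.18, adjusted p = 2.76e-06), both by edgeR. tubb5 was 11.2-fold higher in spermatids than in type A spermatogonia. Per cell this difference was 1.31 on the log2 scale and still called, while that of tuba7l was 0.09 (adjusted p = 4.86e-01, edgeR).

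**Figure D3:**
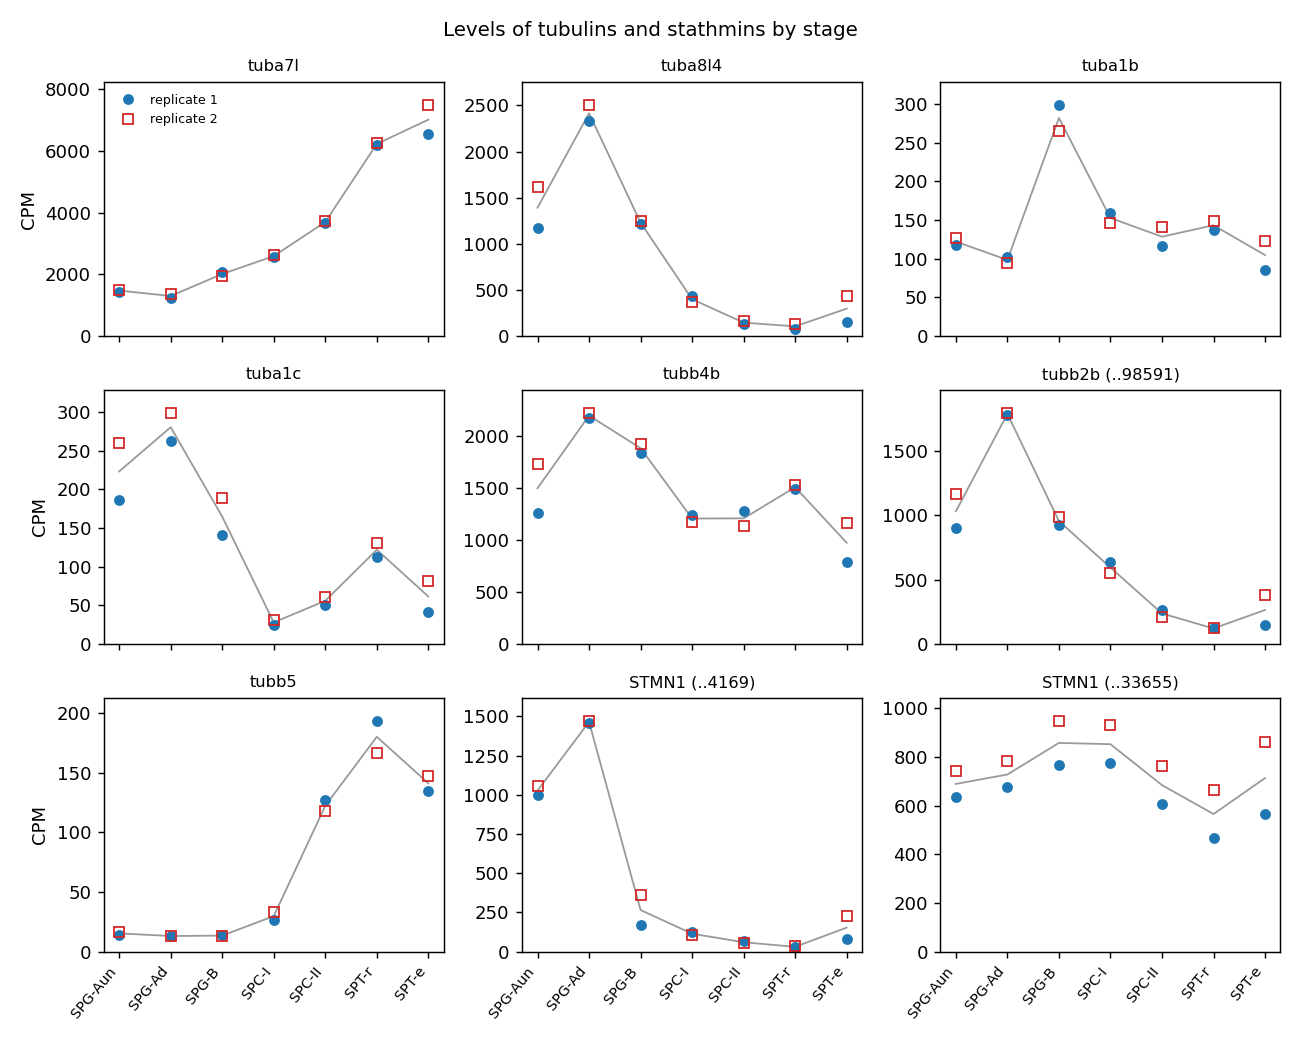
CPM by stage (linear axes from 0, a separate range in each panel) of 4 alpha tubulins, 3 beta tubulins and the 2 genes named STMN1, with circles for replicate 1, squares for replicate 2 and a line through their mean. tuba7l climbs from 1216 to 7484 CPM over the lineage, while tuba8l4, tubb2b and STMN1 (ENSDARG00000004169) are highest in SPG-Ad.

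Stathmins bind free tubulin dimers and promote the shortening of microtubules. Of the 2 genes named STMN1, 1 was highest in type A spermatogonia and the other was present at every stage. STMN1 (ENSDARG00000004169) gave 999 and 1055 CPM in SPG-Aun, 1461 and 1470 CPM in SPG-Ad, 171 and 359 CPM in SPG-B, 123 and 105 CPM in SPC-I, 65.5 and 53.5 CPM in SPC-II and 28.1 and 32.5 CPM in SPT-r. From SPG-Ad to SPG-B it fell by 2.46 on the log2 scale (SE 0.36, adjusted p = 2.51e-04, edgeR), the largest fall of that step among the members, and in spermatids it was 17.6-fold lower than in type A spermatogonia (log2 fold change −4.14, SE 0.28, adjusted p = 2.38e-09). Both values moved in either direction when 1 sum was left out. The first was −3.29 without SPG-B of replicate 2 and −2.27 without SPG-B of replicate 1. The second was −4.81 without SPT-e of replicate 2 and −4.0 without SPT-e of replicate 1. STMN1 (ENSDARG00000033655) stayed between 468 and 947 CPM in all 14 sums, and its difference over stages passed the test only with the replicate block (adjusted p = 1.40e-02, against 2.34e-01 without it, edgeR). In every stage its level was higher in replicate 2 than in replicate 1. The third tested stathmin, STMN4 (ENSDARG00000030106), was rare, at 0.534 to 6.12 CPM in type A spermatogonia and 22.5 and 34.1 CPM in SPT-r, and was called higher in spermatids at 2.09 (SE 0.53, adjusted p = 2.25e-03, edgeR), a direction that turned to −0.07 per cell. Its replicates were apart in type A spermatogonia, with 0.534 and 5.85 CPM in SPG-Aun and 1.298 and 6.12 CPM in SPG-Ad, and the value was between 1.65 and 3.27 when each sum was left out in turn, highest without SPG-Aun of replicate 2.

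Tubulin cofactors A to E fold alpha and beta tubulin and join them to dimers. Of the 5 genes, TBCD alone was called higher and TBCC alone lower in spermatids than in type A spermatogonia, where 31.3% of all genes were called higher and 37% lower. TBCD, the beta tubulin cofactor that takes part in dimer assembly, rose from 4.86 to 7.79 CPM in type A spermatogonia to 57.1 to 93.6 CPM in spermatids (log2 fold change 3.69, SE 0.19, adjusted p = 6.65e-11, edgeR). TBCC, which acts on the assembled complex, gave 34.6 to 44.7 CPM in type A spermatogonia and 11.7 to 19.8 CPM in spermatids, and fell by 1.36 (SE 0.19, adjusted p = 9.45e-06, edgeR). Its fall of 1.06 from SPC-II to SPT-r was the only one called in that step and was not called with RLE size factors, with DESeq2 or without a filter on low counts. TBCA, the most abundant cofactor, had 317 to 343 CPM in type A spermatogonia and 115 to 464 CPM in spermatids, where replicate 2 was above replicate 1 in both stages (270 against 115 CPM and 464 against 197 CPM). TBCB was at 152 to 174 CPM and 115 to 180 CPM in these groups, and neither it nor TBCA and tbce was called.

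The gamma tubulin complex is the microtubule-seeding unit at centrosomes and spindle poles. Of gamma tubulin and its 4 partners, only TUBGCP2 was called between spermatids and type A spermatogonia (log2 fold change 1.27), whereas delta tubulin and both epsilon tubulin genes were called higher. TUBG1, gamma tubulin itself, had 47.7 to 67.1 CPM in type A spermatogonia, 81.05 and 103 CPM in SPC-II, 105 and 126 CPM in SPT-r and 44.8 and 39.6 CPM in SPT-e. It fell by 1.47 from SPT-r to SPT-e (SE 0.22, adjusted p = 2.08e-04, edgeR), as did TUBGCP4 by 1.07 and TUBGCP5 by 1.03, of which TUBGCP5 was not called with the replicate block, at −0.99. TUBGCP2, a core subunit, went the other way on the CPM scale, from 69.9 and 95.2 CPM in SPT-r to 142 and 190 CPM in SPT-e (log2 fold change 1.01, adjusted p = 2.17e-03, edgeR), a direction that turned to −1.87 per cell. TUBGCP4 gave the only call between SPG-Aun and SPG-Ad, with 16.8 and 27.1 CPM against 47.4 and 47.1 CPM (log2 fold change 1.06, SE 0.22, adjusted p = 2.07e-02, edgeR), beside 1.01% of all genes called higher in that step. The call was lost when the labels of replicate 1 were transferred too, at 0.95, and without the SPG-Aun sum of replicate 1, at 0.68.

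TUBE1 (ENSDARG00000096620), an epsilon tubulin, was a gene of meiosis and round spermatids. It had 6.68 to 14.9 CPM in type A spermatogonia, 27.6 and 29.2 CPM in SPC-I, 101 and 95.1 CPM in SPC-II, 188 and 217 CPM in SPT-r and 79.9 and 60.5 CPM in SPT-e. It was called higher in each of the 3 steps from SPG-B to SPT-r, by 1.13, 1.78 and 1.05 on the log2 scale, and lower by 1.56 in the last step (SE 0.21, adjusted p = 9.00e-05, edgeR). Per cell the 3 rises were 0.96, 2.19 and 0.74, so that the first and the last lay under the limit of 1. The second gene of that name, tube1 (ENSDARG00000043982), had at most 1.87 CPM before SPT-r, with 3 UMIs in type A spermatogonia and 32 in spermatids, a ratio of 34.4 with a counting interval of 10.8 to 176. TUBD1, delta tubulin, was 5.10-fold higher in spermatids (log2 fold change 2.35, SE 0.16, adjusted p = 2.29e-09, edgeR), at 63.8 to 97.9 CPM against 13.6 to 18.4 CPM. Per cell the difference of TUBD1 was 0.18 (adjusted p = 3.62e-01, edgeR). Altogether 4 of the 8 genes of this group were called higher in spermatids and 0 lower, beside 31.3% and 37% of all genes. Among these 4, TUBGCP2 turned to −0.92 per cell.

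The TTLL genes gave the most calls of any family. All 11 were tested, of which 10 were called higher in spermatids than in type A spermatogonia and 1, ttll4, lower. The family's median was 4.37 on the log2 scale, while that of all genes was −0.29. In that comparison 31.3% of all genes were called higher and 37% lower. On this scale 0 is set by the TMM size factors, and the median of all genes lay slightly below it.

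Most abundant was ttll6, whose mammalian counterpart lengthens glutamate side chains. It gave 8.66 to 11.5 CPM in type A spermatogonia, 17.1 and 19.8 CPM in SPG-B, 134 and 168 CPM in SPC-I, 374 and 400 CPM in SPC-II, 599 and 603 CPM in SPT-r and 456 and 434 CPM in SPT-e. The first large rise, from SPG-B to SPC-I, was 3.03 on the log2 scale (SE 0.19, adjusted p = 4.73e-08, edgeR), and the difference between spermatids and type A spermatogonia was 5.73 (SE 0.14, adjusted p = 2.14e-14). No spermatid sum overlapped with any spermatogonial sum.

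TTLL9 and TTLL1 rose in the same steps and, on the CPM scale, stayed high in elongated spermatids. TTLL9 had 15.4 to 19.2 CPM in type A spermatogonia, 76.8 and 107 CPM in SPC-I, 332 and 368 CPM in SPT-r and 370 and 390 CPM in SPT-e. TTLL1, in mammals the catalytic subunit of a complex that glutamylates tubulin, had 6.68 to 17.99 CPM, 32.3 and 54.6 CPM, 252 and 344 CPM, and 325 and 415 CPM in the same stages. Their log2 fold changes were 4.37 (SE 0.15, adjusted p = 4.64e-13) and 4.62 (SE 0.23, adjusted p = 5.02e-11) in spermatids over type A spermatogonia by edgeR. In UMIs per cell both fell from SPT-r to SPT-e. TTLL9 went from 2.716 and 3.062 to 0.446 and 0.415, and TTLL1 from 2.063 and 2.862 to 0.392 and 0.442, in replicates 1 and 2.

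TTLL3 and ttll10 are, in mammals, glycylases, of which TTLL3 adds the first glycine and TTLL10 lengthens the chain. TTLL3 had the largest rise of all members. It gave 1.28 to 1.62 CPM in type A spermatogonia, 6.45 and 14.4 CPM in SPC-I, 45.1 and 44.9 CPM in SPC-II, 169 and 168 CPM in SPT-r and 302 and 464 CPM in SPT-e. It was called higher in each of the 4 steps from SPG-B on and stood 174-fold higher in spermatids (log2 fold change 7.45, SE 0.27, adjusted p = 1.28e-12, edgeR), with the step from SPT-r to SPT-e turning from 1.20 to −1.68 per cell. ttll10 came later and stayed lower, with 6.74 to 13.1 CPM in spermatocytes, 30.3 and 29.0 CPM in SPT-r and 48.7 and 37.4 CPM in SPT-e.

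TTLL2 and TTLL11 were rare before meiosis. TTLL2 gave 0 and 0.535 CPM in SPG-B, 13.5 and 18.9 CPM in SPC-I and 97.9 and 94.9 CPM in SPT-r. It had the largest rise into SPC-I, with 170 UMIs there against 1 in SPG-B, a ratio of 65.3 with a counting interval of 11.6 to 2595. TTLL11, a glutamylase in mammals, had the largest rise from SPC-I to SPC-II, from 2.93 and 5.96 CPM to 22.5 and 21.3 CPM (log2 fold change 2.20, SE 0.31, adjusted p = 8.82e-05, edgeR). This rise was 2.88 without the SPC-I sum of replicate 2 and 1.86 without that of replicate 1. TTLL11 reached 50.6 and 51.5 CPM in SPT-r. In UMIs per cell it gave 0.03571 and 0.02634 in SPG-Aun and 0.03425 and 0.02828 in SPG-Ad. These values lay between those of SPC-I, 0.02283 and 0.04545. The other TTLL genes called higher in spermatids were ttll5, TTLL7 and TTLL12, at 4.62, 1.78 and 1.45 on the log2 scale, of which TTLL7 and TTLL12 turned to −0.39 and −0.73 per cell. ttll4, a glutamylase in mammals, was the exception, with 68.9 to 95.1 CPM in type A spermatogonia and 15.6 to 38.0 CPM in spermatids (log2 fold change −1.33, SE 0.18, adjusted p = 7.02e-06, edgeR).

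**Figure D4:**
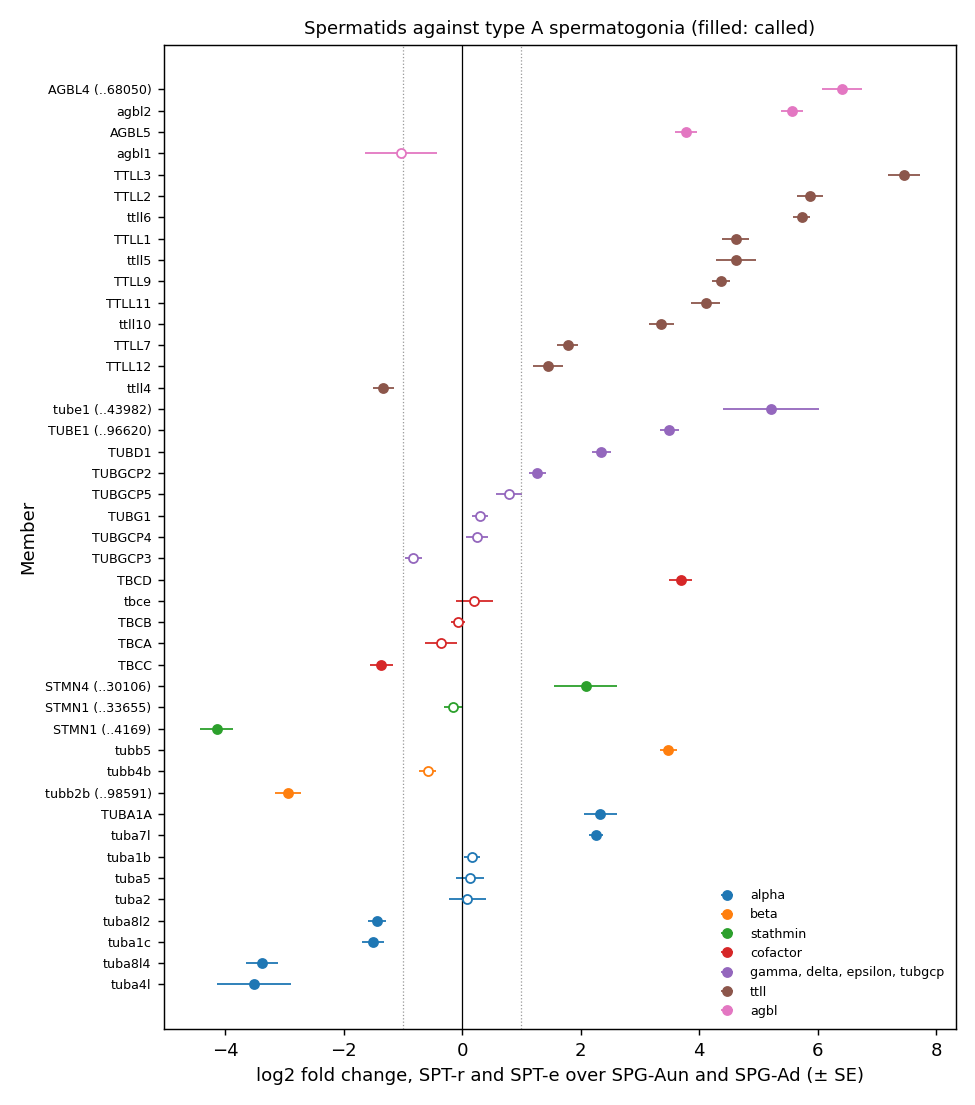
Log2 fold change (x axis, with SE as bars) of SPT-r and SPT-e over SPG-Aun and SPG-Ad for the 43 tested members (y axis), coloured by family, with filled circles for members called, and dotted lines at the limits of 1 in size. 22 members lie above and 8 below these limits, from −4.14 for STMN1 (ENSDARG00000004169) to 7.45 for TTLL3.

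AGBL genes, of the opposite activity, were also higher in late stages. Of the 4 tested, 3 were called higher in spermatids than in type A spermatogonia and 0 lower, beside 31.3% and 37% of all genes. agbl2 had 3.77 to 8.01 CPM in type A spermatogonia, 71.3 and 79.6 CPM in SPC-I, 175 and 127 CPM in SPC-II, 304 and 283 CPM in SPT-r and 234 and 281 CPM in SPT-e. Its rise was already 3.70 on the log2 scale from SPG-B to SPC-I (SE 0.30, adjusted p = 3.86e-07, edgeR). AGBL5, which in mammals removes the glutamate at the branch point, rose later. AGBL5 stayed at 5.63 to 12.8 CPM up to SPC-I, then gave 17.6 and 24.3 CPM in SPC-II, 74.8 and 92.0 CPM in SPT-r and 197 and 199 CPM in SPT-e. Its rise from SPC-II to SPT-r, 1.96 (SE 0.25, adjusted p = 2.82e-05, edgeR), was the largest of that step among the members. In the next step it rose by 1.24, a direction that turned to −1.63 per cell.

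AGBL4 (ENSDARG00000068050) and agbl1 were rarer, and both rose from SPG-B to SPC-I. AGBL4 had 0.267 to 1.08 CPM in type A spermatogonia, 15.5 and 11.3 CPM in SPC-I and 48.7 and 63.8 CPM in SPT-e, with a log2 fold change of 6.41 in spermatids (SE 0.34, adjusted p = 1.45e-10, edgeR). agbl1 peaked in primary spermatocytes, with 10.9 and 7.49 CPM in SPC-I and at most 4.76 CPM in any other sum. In UMIs per cell, its SPG-Ad values of 0.0753 and 0.0591 overlapped with those of SPC-I, 0.0845 and 0.0571. On the CPM scale it rose by 2.35 into SPC-I and fell by 2.60 into SPC-II (SE 0.66, adjusted p = 7.61e-03, edgeR), the largest fall of that step, and its difference between spermatids and type A spermatogonia of −1.03 did not pass the test.

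From SPG-Ad to SPG-B, 2 members rose and 2 fell on the CPM scale, beside 5.52% and 8.89% of all genes. From SPG-B to SPC-I, 13 members rose and 5 fell (14.3% and 12.3% of all genes), among them 7 TTLL and 3 AGBL genes that rose and 4 alpha tubulins that fell. From SPC-I to SPC-II, 13 rose and 3 fell (12.1% and 11.3% of all genes), with 8 TTLL genes among those that rose. The 5 that fell into SPC-I were tuba1c, tuba8l2, tuba4l, tuba8l4 and STMN1 (ENSDARG00000004169), and the 3 that fell into SPC-II were agbl1, tuba8l4 and tubb2b. Per cell the counts of members that rose and fell were 0 and 17 from SPG-Ad to SPG-B, 9 and 6 into SPC-I, and 23 and 2 into SPC-II. Of all 13885 genes, 145 rose and 4513 fell per cell in the first of these steps, 1665 and 2179 in the second, and 3018 and 876 in the last.

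From SPC-II to SPT-r, 10 members rose and 1 fell, beside 14.7% and 8.7% of all genes. AGBL5, TTLL3, TUBA1A, tuba8l2 and ttll5 rose most. This step depended on the scaling of the sums. With no size factors, so that all UMIs of a sum set the scale, 3 members rose, AGBL5, TTLL3 and TUBA1A, and 4 fell, TBCC, tubb2b, ttll4 and STMN1 (ENSDARG00000004169). Of all 13885 genes, 1199 rose and 3265 fell with no size factors. The median of all genes moved from −0.08 to −0.57 on the log2 scale between these scalings.

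From SPT-r to SPT-e, 6 members rose and 5 fell on the CPM scale, beside 13.8% and 7.19% of all genes. STMN1 (ENSDARG00000004169) rose most, from 28.1 and 32.5 CPM to 78.0 and 228 CPM (log2 fold change 2.38, SE 0.40, adjusted p = 6.01e-04, edgeR). Also high in SPG-Ad were tuba8l4 and tubb2b, which rose by 1.53 and 1.18. Not all members high in SPG-Ad rose in this step, since tubb4b stood at −0.63 and tuba8l2 at −0.01. In the same sums ddx4 went from 95.2 and 134 CPM to 238 and 592 CPM, piwil1 from 175 and 256 to 388 and 614 CPM and pcna from 24.8 and 35.8 to 101 and 268 CPM. The spermatocyte genes sycp3 and dmc1 went from 426 and 429.5 to 838 and 816 CPM and from 89.1 and 86.7 to 251 and 179 CPM. Markers of spermatogonia and of spermatocytes were thus higher in SPT-e too. In SPT-e, ddx4, piwil1 and pcna were higher in replicate 2, while sycp3 and dmc1 were not. Summed Leydig markers were 119 and 361 CPM in SPT-e against 74.8 and 121 CPM in SPT-r. The part of these transcripts in the rise was not tested. The rise of STMN1 (ENSDARG00000004169) leaned on 1 sum, at 1.31 without the SPT-e sum of replicate 2 and 2.55 without that of replicate 1.

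Scale mattered most in this last step, since an elongated spermatid yielded far fewer UMIs. With all UMIs as the scale 2 members rose, STMN1 (ENSDARG00000004169) and tuba8l4, and 11 fell, beside 1138 and 2217 of all 13885 genes. Per cell 0 rose and 41 fell, beside 220 and 11249 of all genes, where the median of all genes moved from 0.18 to −2.67. TUBA1A, TUBE1 (ENSDARG00000096620), TUBG1, TUBGCP4 and TUBGCP5 were called lower on each of these scales. Fewer transcripts per cell and less efficient capture of them cannot be told apart in these data.

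In UMIs per cell, all members together went from 173 ± 6.11 in SPG-Ad through 57.0 ± 0.123 in SPC-I and 103 ± 5.87 in SPT-r to 14.9 ± 1.16 in SPT-e (SD, n = 2). As a share of all UMIs, with no size factors, they moved less, from 1.18% ± 0.0282 in SPG-Ad to 0.845% ± 0.0159 in SPC-I, 1.14% ± 0.0432 in SPT-r and 0.885% ± 0.0301 in SPT-e. Families did not move together. Alpha tubulin members were 0.441% ± 0.0251 of UMIs in SPG-Ad and 0.623% ± 0.0363 in SPT-r, while beta tubulin members were 0.409% ± 0.00123 and 0.164% ± 0.0128. Totals of the members were thus close in SPG-Ad and far apart in SPT-r. Tubulin genes under other symbols are not counted, so these totals need not be those of all alpha and beta tubulin. TTLL genes went from 0.0149% ± 0.00117 to 0.158% ± 0.00291, about as much as the beta members in SPT-r, and AGBL genes from 0.00204% ± 4.83e-05 to 0.0374% ± 0.00294. A cell held 16.5 to 20.0 UMIs of tuba7l from SPG-Aun to SPC-I. Secondary spermatocytes already held 38.3 and 37.5 (replicates 1 and 2), which per cell was 0.93 above SPC-I on the log2 scale. Round spermatids reached 50.7 and 52.3, a smaller further rise of 0.44, whereas elongated spermatids held only 7.897 and 7.971.

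**Figure D5:**
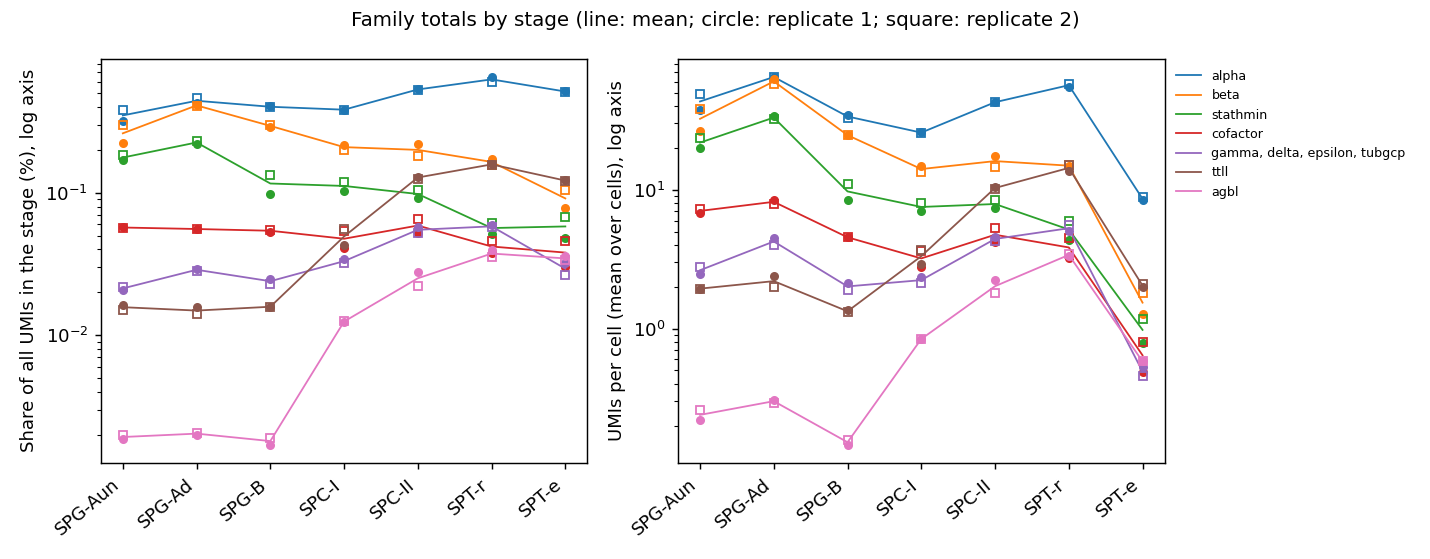
Family totals by stage as percent of all UMIs (left) and as mean UMIs per cell (right), both on log axes, with circles for replicate 1, squares for replicate 2 and lines through their mean. TTLL and AGBL genes climb from SPG-B to SPT-r in both panels, and all 7 families are lower per cell in SPT-e than in SPT-r.

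Spermatids against type A spermatogonia gave 22 members that rose and 8 that fell, beside 31.3% and 37% of all genes. By family, 2 alpha tubulins rose (tuba7l and TUBA1A) and 4 fell (tuba4l, tuba8l4, tuba1c and tuba8l2), and of the 3 tested beta tubulins tubb5 rose and tubb2b fell. The median over the members was 1.27 on the log2 scale. Round spermatids alone against the same spermatogonia gave 23 and 8, beside 33.5% and 37.2% of all genes, with TUBGCP2 no longer called, at 0.76. With all UMIs as the scale the counts for both spermatid stages were 21 and 10, beside 3797 and 6105 of all 13885 genes. Per cell they were 15 and 21, beside 1968 and 9482 of all genes, where the median of all genes was −2.43. All of ttll6, TTLL1, TTLL2, TTLL3, ttll5, TTLL9, ttll10 and TTLL11 were still called higher per cell, as were agbl2, AGBL5, AGBL4 (ENSDARG00000068050), TBCD, tubb5 and both epsilon tubulin genes.

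Other microtubule genes were listed for comparison, and of 92 symbols 69 matched and 55 were tested. In spermatids over type A spermatogonia 27 of the 55 were called higher and 10 lower, beside 31.3% and 37% of all genes, with a median of 0.99. Of 9 partners of the TTLL1 glutamylase and other folding genes, 7 were higher and 0 lower. TPGS1 and TPGS2, subunits of that complex in mammals, stood at 6.08 (SE 0.16) and 5.01 (SE 0.18) on the log2 scale, and CEP41, needed for glutamylation of cilia, at 6.71 (SE 0.17). Among genes for acetylation and detyrosination, atat1, the tubulin acetylase, was at 3.10 (SE 0.40) and the detyrosinases VASH1 and VASH2 at 5.18 (SE 0.64) and 2.67 (SE 0.18), and of the deacetylases HDAC6 was lower at −1.14 (SE 0.24) and SIRT2 higher at 1.30 (SE 0.26). The largest value of the list was 7.98 (SE 0.17) for SAXO2, a binding protein of stable microtubules.

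Severing genes were called in both directions. KATNAL2, of the katanin family, stood at 5.03 on the log2 scale, while KATNA1, SPAST (spastin) and FIGNL1 were lower at −2.80, −2.53 and −1.04. Of 13 ring partners and augmin subunits, 3 were higher (nedd1, cdk5rap2 and haus4) and 5 lower (mzt2b, MZT1, HAUS1, haus5 and haus6), beside 31.3% and 37% of all genes, with a median of −0.17.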

How the data were processed

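Testes of adult zebrafish were profiled with a 10X Genomics Chromium 3′ kit, which counts UMIs. The authors made the deposited files with Cell Ranger 7.2.0 per the labels (the matrix header names 6.1.2) on the danRer11 genome, and the values are unnormalised UMI counts per gene and cell barcode; the annotation release is not given in the sources used here. Replicate 1 held 3984 barcodes with 34153824 UMIs and replicate 2 held 5996 with 52845050, and 8 barcodes occurred in both.

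Cells with 200 to 7000 genes and at most 5% mitochondrial UMIs were kept, 3018 and 5104. The study's stage labels were used for 1999 cells of replicate 1. For replicate 2, labels were transferred in scanpy 1.11.5 (2000 variable genes, 30 principal components, 15 neighbours), with 165 genes left out, among them the members. Of replicate 1, 112 cells that the study did not keep and 907 outside the labelled range were left out, and of replicate 2, 194 nearest to the former and 967 in 2 clusters found in that replicate alone. Doublets were left in, and Scrublet's calls (76 and 98 cells) were removed as an alternative.

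Counts were summed by stage and replicate and tested in edgeR 4.0.16 (R 4.3.3; filterByExpr, TMM, quasi-likelihood test, stage as the 1 factor), with Benjamini-Hochberg adjustment over 13885 genes. Standard errors are the log2 fold change divided by the root of F. On simulated counts for SPT-r over SPC-II (13885 genes), 18 of 100 genes changed 2-fold and 75 of 100 changed 4-fold were recovered. Recovery meant an edgeR adjusted p below 0.05 in the simulated direction, with no limit on the fold change. Same-numbered sums come from 1 library, and their deviations correlated between stages by 0.12 to 0.484 over 21 pairs of stages, so that the replicate number pairs them. Alternatives were DESeq2 1.42.0, RLE size factors, no filter, the number of cells as the scale, a replicate block, 5 neighbours, labels transferred in both replicates, doublets removed, a mitochondrial limit of 10% in replicate 2 (shares only) and each sum left out. Round spermatids alone and all UMIs as the scale were added after seeing the data.

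Members and lists were chosen with earlier results of these data known. Genes named were alpha and beta tubulins with at least 10% of their family's UMIs in a stage, those with the largest called rise or fall in a comparison, and the 3 most abundant of each other family; further genes were named after their values were seen.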

Additional observations from a re-analysis of the deposited data

Results flagged for a closer look

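Cells that the study had not kept, 112 in replicate 1 and 194 nearest to them in replicate 2, entered no comparison, and for 4 members the lower bound of the exact 95% counting interval in them lay above the highest germ cell stage in both replicates. Only members were compared in this way, so the share of all genes that would pass is not known here. The cells of replicate 2 were picked by nearness to those of replicate 1, so the 2 replicates are not independent in this. Values here are UMIs scaled to the total of the pool, without size factors. STMN2 (ENSDARG00000070537), a stathmin of neurons in mammals, stood at 10.59 in replicate 1 and 9.367 in replicate 2, against at most 1.787 in any stage. The alpha tubulins tuba8l3 and tuba8l2 stood at 6.054 and 3.122, and at 146.1 and 134.6, in replicates 1 and 2, against at most 0.7611 and 117.6 in a stage. The beta tubulin tubb4bl gave 6.811 and 9.679, against at most 1.459. A further 3 members, tuba4l (9.838 and 11.55, against 8.044), STMN2 (ENSDARG00000033234) (6.811 and 5.62, against 5.548) and STMN4 (ENSDARG00000043932) (2.27 and 3.434, against 0.8235), were above the highest stage in both replicates with an interval that reached it in at least 1. In the same cells the Leydig marker insl3 stood at 11260 and 29690 and the germ cell marker ddx4 at 2514 and 2231, so that both kinds of transcript were present, and which cells carried the 4 members was not tested.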

How the results depend on the processing

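Counts of members called depended most on the scale. When sums were scaled by their number of cells, 2 members were higher from SPG-Aun to SPG-Ad, 0 higher and 17 lower from SPG-Ad to SPG-B, 23 higher from SPC-I to SPC-II, 5 higher and 4 lower from SPC-II to SPT-r, 0 higher and 41 lower from SPT-r to SPT-e, and 21 lower in spermatids than in type A spermatogonia. Of all 13885 genes, 234 were higher on that scale from SPG-Aun to SPG-Ad, and 1453 were higher and 2320 lower from SPC-II to SPT-r. On that scale STMN1 (ENSDARG00000004169) turned to −0.53 from SPT-r to SPT-e, and TUBGCP2 and STMN4 (ENSDARG00000030106) to −0.92 and −0.07 in spermatids. With all UMIs as the scale, 3 were higher and 4 lower from SPC-II to SPT-r, beside 1199 and 3265 of all genes. From SPT-r to SPT-e, 2 were higher and 11 lower on this scale, beside 1138 and 2217 of all genes. With labels transferred in both replicates, 0 were higher from SPG-Aun to SPG-Ad and 0 lower from SPC-II to SPT-r, and the latter count was also 0 with DESeq2, with RLE size factors and without a filter. From SPT-r to SPT-e, 8 were lower with doublets removed and 9 without a filter. The difference in the share of tubb2b between SPT-r and SPG-Ad was −38.55 percentage points with transferred labels and −38.5 with doublets removed (−38.15 as reported), and that of tubb5 between SPT-e and SPG-Ad was 13.48 with doublets removed (10.36 as reported). The cause was not tested.

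Leaving out each sum in turn gave 0 to 1 members higher from SPG-Aun to SPG-Ad, 1 to 2 higher and 2 to 5 lower from SPG-Ad to SPG-B, 9 to 15 higher and 3 to 5 lower into SPC-I, 8 to 15 higher and 2 to 3 lower into SPC-II, 8 to 11 higher and 0 to 3 lower into SPT-r, 1 to 7 higher and 4 to 9 lower into SPT-e, and 20 to 22 higher and 8 to 10 lower in spermatids. With the replicate block, 41 members differed over stages in place of 38, no count of calls moved by over 1.5 times, and 2 calls of single steps changed, that of TUBGCP5 into SPT-e, which was lost, and that of STMN4 (ENSDARG00000030106) into SPC-II, which was gained at 1.52 (adjusted p = 1.01e-02, edgeR). For the fits that left out a sum or used the block, the share of all genes called is not given here. The share of alpha tubulin UMIs from proteins ending in tyrosine, planned as a result, was not run, since protein sequences were not used here. SPT-e sums, of 693732 and 1478776 UMIs, limited the precision of the last step.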
